A study of Rattus norvegicus with 12 samples.

Results

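Mt-atp6 (ENSRNOG00000031979) and Mt-atp8 (ENSRNOG00000033299) are the ATP synthase genes of the rat mitochondrial genome. Both were taken from the deposited count table by gene name, and they are 2 of its 30560 genes. All 12 libraries came from the muscle of 1 male wild-type Wistar Kyoto rat aged 14 weeks, killed under isoflurane anaesthesia. Hindlimb muscle, named as gastrocnemius in the series design, was minced in lysis buffer with protease inhibitors, homogenised and pooled, and separate aliquots were purified in 4 ways with 3 libraries each. Crude mitochondria were pelleted by differential centrifugation. Captured mitochondria were pulled down by immunoprecipitation on magnetic beads. Captured mitochondria with proteinase K had also met a protease that digests protein exposed on the organelle surface. Mitoplasts, mitochondria without their outer membrane, were prepared from captured organelles. All 4 preparations had received RNase A, which degrades accessible single-stranded RNA, so no library shows the untreated level. With 1 animal, every SD and p-value covers the spread among aliquots alone, which may be technical. Crude libraries were made from 6.3 ng of RNA and the others from 40 ng, so the isolation method and the RNA input cannot be told apart.

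ATP synthase is the rotary enzyme of the inner mitochondrial membrane that makes ATP as protons flow back into the matrix. Most of its subunits are nuclear-encoded and imported, but subunit a, the product of Mt-atp6, which forms the proton path beside the rotating ring, and subunit 8, the product of Mt-atp8, a small membrane protein of the peripheral stalk, are translated inside the organelle. In mammals the Mt-atp8 and Mt-atp6 reading frames overlap on a single messenger RNA, cut from the long heavy-strand transcript by excision of flanking tRNAs and, toward Mt-co3, at a site without a tRNA. A read lying across the overlap belongs to both genes. For such reads, and for reads matching several places, the counting rule was not given in the sources used here. Gene lengths were not used here, so the counts of the 2 genes are not set against each other as levels, and their ratio is compared only between preparations.

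Mt-atp6 was abundant in crude mitochondria and far lower in every captured preparation. It had 78164, 108325 and 90693 counts in crude replicates 1 to 3, and 7429, 4354 and 12032 in captured mitochondria. With proteinase K it had 3697, 3620 and 4498 counts, and in mitoplasts 4554, 4772 and 3141. These counts were 1.19% to 1.52% of all gene counts in crude libraries and 0.081% to 0.308% in the other 9. No captured library reached the lowest crude library, and captured replicate 3 was the highest of the 9.

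Mt-atp8 had much smaller counts, with preparation means in the same order as for Mt-atp6 but overlapping libraries outside the crude group. It had 558, 633 and 498 counts in crude mitochondria, 88, 48 and 152 in captured mitochondria, 60, 61 and 52 with proteinase K, and 75, 62 and 46 in mitoplasts. The crude libraries again stood apart from the other 9, and captured replicate 3 was again the highest of those. At such counts sampling alone is wide: the 46 counts of mitoplast replicate 3 have a 95% exact Poisson interval of 33.7 to 61.4, which covers counting error only, since PCR copies are not independent molecules.

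**Figure D1:**
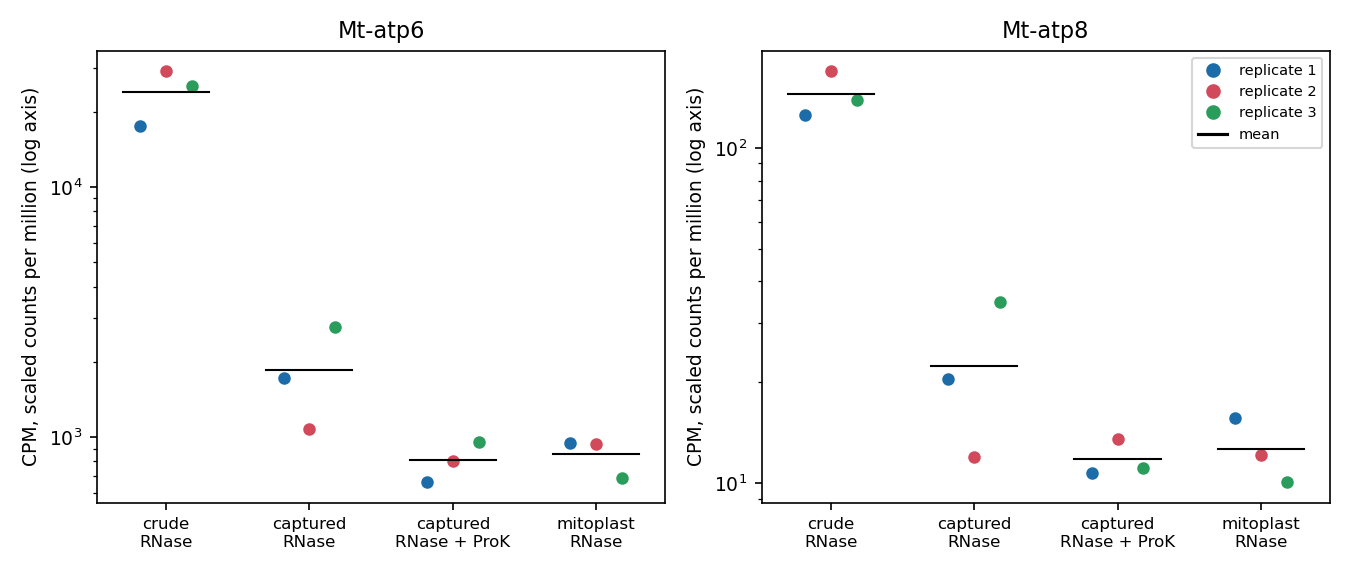
Level of Mt-atp6 (left) and Mt-atp8 (right) in each library, in CPM (counts relative to the scaled library size) on a log axis. Each point is 1 library, coloured by replicate number, and the black line is the mean of 3. Crude libraries lie between 17532 and 28998 for Mt-atp6 and between 125 and 169 for Mt-atp8, above all captured libraries.

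Total counts were 6583452 to 7123045 in crude libraries and 3325430 to 4563254 in the others, and the 13 mitochondrial mRNAs held 22.9% to 28.8% of them in crude libraries and 1.49% to 5.59% in the others. Scaling therefore matters for every level below. Levels in CPM, counts relative to library size, used sizes scaled by TMM, which assumes that most genes do not differ, and its factors were 0.525 to 0.679 in crude libraries and 1.12 to 1.23 elsewhere. Skeletal muscle markers were counted in every library. The 10 of 12 listed genes found on a single row, such as Acta1 and Ckm, had at least 475 counts each in every crude library. In every captured library they had at least 51. Their summed level was 5183 to 6576 CPM in crude libraries and 501 to 679 in the other 9. Fibroblast markers (4 genes) also moved with the preparation, at 1236 to 1325 CPM in crude and 260 to 284 in the others. Summed levels in crude and in the other libraries were 439 to 464 and 417 to 453 CPM for 5 endothelial genes, 236 to 249 and 219 to 244 for 4 macrophage and leukocyte genes, 70.1 to 86.5 and 59.4 to 66.2 for 3 adipocyte genes, 67.2 to 83.5 and 53.8 to 60.7 for 2 erythroid genes, and 95.02 to 107 and 80.5 to 98.1 for 3 Schwann cell genes. No marker was at 0 in any library, but neither was the median olfactory receptor gene, of a family that muscle does not normally transcribe. That median was 30 to 34 counts in crude libraries and 37 to 49 in the others. The lowest marker counts were near it, at 31 for adipocyte genes in crude libraries and 51 for muscle genes in captured ones. Counts that low do not show that a marker was present. The median gene outside the mitochondrial genome had 63 to 78 counts in crude libraries and 70 to 97 in the others. How far genes near the olfactory level shaped the TMM factors, and the shares of genes called given below, was not tested. The part of other cells and of carried-over cytosol in the results was not tested.

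The comparison of captured with crude mitochondria asked how the RNA recovered differed between these preparations, which also differed in RNA input. Mt-atp6 fell from 23983 ± 5866 to 1857 ± 843 CPM (SD, n = 3 each), with a log2 ratio of -3.69 ± 0.212 (SE), or 12.9-fold lower. By edgeR its Benjamini-Hochberg adjusted p was 6.55e-21. The level of Mt-atp8 went from 145 ± 22.6 down to 22.4 ± 11.6 CPM, or 6.36-fold lower, at -2.67 ± 0.139 in log2 terms (edgeR adjusted p = 8.17e-23). Both genes were called lower, against 5.09% of the 26483 genes tested, with 1.26% called higher and 6.36% in all. All 13 mitochondrial mRNAs were called lower, from -4.04 to -2.67. Each SE was the size of the log2 fold change divided by the square root of the edgeR F statistic, so it restates that test. It rests on dispersions moderated over all genes. It is tighter than the spread of the 3 captured libraries, whose Mt-atp6 levels ran from 1083 to 2756 CPM. In these bulk preparations, fewer mitochondria in a library and less RNA per mitochondrion cannot be told apart.

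The fall was deeper after proteinase K and in mitoplasts, each set against the same crude libraries. Mt-atp6 stood at 809 ± 150 CPM with proteinase K, at -4.89 ± 0.225 in log2 terms (edgeR adjusted p = 3.24e-25), and at 859 ± 148 CPM in mitoplasts, at -4.80 ± 0.224 (edgeR adjusted p = 6.3e-25). Mt-atp8 stood at 11.8 ± 1.52 CPM with proteinase K, at -3.62 ± 0.151 (edgeR adjusted p = 4.9e-27), and at 12.6 ± 2.83 CPM in mitoplasts, at -3.51 ± 0.15 (edgeR adjusted p = 1.31e-26). Both members were called lower in each comparison, against 5.04% of the genes tested with proteinase K (1.45% higher, 6.49% in all) and 4.54% in mitoplasts (0.997% higher, 5.54% in all). All 13 mitochondrial mRNAs were called lower in both, at medians of -4.89 and -4.93. In linear terms Mt-atp6 was 29.7-fold and 27.9-fold lower, and Mt-atp8 12.3-fold and 11.4-fold lower. Scaling changed the size but not the direction under library totals, where Mt-atp6 was at -2.65, -3.78 and -3.70 and Mt-atp8 at -1.65, -2.52 and -2.43 in the 3 comparisons with crude mitochondria. Scaled on the other 11 mitochondrial mRNAs, which fell themselves, Mt-atp6 was at 0.02, 0.10 and 0.18 and Mt-atp8 at 0.97, 1.37 and 1.44.

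Captured mitochondria were then compared with and without proteinase K. Mt-atp6 was lower with the protease, at -1.20 ± 0.195 in log2 terms (edgeR adjusted p = 0.000171), and all 3 libraries with proteinase K, at 661 to 961 CPM, lay below the 3 without it. The DESeq2 adjusted p of Mt-atp6 was 0.0454, close to the threshold of 0.05. In this comparison 0.11% of genes were called lower, 0.0302% higher and 0.14% in all, and all 13 mitochondrial mRNAs were among those called lower. Mt-atp8 was at -0.95 ± 0.204 (edgeR adjusted p = 0.0204), with overlapping ranges of 10.7 to 13.5 and 11.9 to 34.8 CPM. That call ended without captured replicate 1 or 3 and without proteinase K replicate 1 or 3 (edgeR adjusted p = 0.0521, 0.602, 0.243 and 0.139). Without captured replicate 3 the fold change of Mt-atp6 was -0.80 and that of Mt-atp8 -0.48. Some of these Mt-atp8 counts lay near the olfactory median, and with that median subtracted Mt-atp8 was at -2.11, with no test.

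Mitoplasts, without the outer membrane, were compared with the captured mitochondria. Mt-atp6 was lower in mitoplasts, at -1.11 ± 0.194 (edgeR adjusted p = 0.000615), with all 3 mitoplast libraries, at 688 to 952 CPM, below the captured ones. Of all genes 0.132% were called lower, 0.0227% higher and 0.155% in all, and 12 of 13 mitochondrial mRNAs were called lower, all but Mt-atp8. The call ended without captured replicate 3 (-0.71, edgeR adjusted p = 0.0646), without mitoplast replicate 3 (-0.98, edgeR adjusted p = 0.0505) and with DESeq2 (adjusted p = 0.0951). Mt-atp8 was at -0.84 ± 0.201 and did not pass (edgeR adjusted p = 0.0632), though it did without captured replicate 2 (-1.13, edgeR adjusted p = 0.000196). With the olfactory median subtracted it was at -1.74, with no test. Between mitoplasts and proteinase K-treated mitochondria the libraries of both members overlapped. Mt-atp6 was at 0.09 ± 0.192 and Mt-atp8 at 0.11 ± 0.224 (edgeR adjusted p = 1.00 for both). In that comparison 0% of genes were called by edgeR, 741 had an unadjusted p under 0.05, and DESeq2 called 0. The order of Mt-atp6 levels was thus crude, then captured, then mitoplasts and proteinase K-treated mitochondria, the last pair not separated beyond their spread. For Mt-atp8 the crude libraries stood apart, while the ranges of the 3 other preparations overlapped, at 11.9 to 34.8 CPM in captured, 10.7 to 13.5 with proteinase K and 10.1 to 15.7 in mitoplasts.

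In counts as deposited, Mt-atp8 was a larger fraction of Mt-atp6 after capture. Crude libraries had 0.714, 0.584 and 0.549 Mt-atp8 counts per 100 Mt-atp6 counts. Captured libraries had 1.18, 1.10 and 1.26, libraries with proteinase K 1.62, 1.69 and 1.16, and mitoplast libraries 1.65, 1.30 and 1.46. All 9 captured libraries were above all 3 crude ones. The log2 ratio was -6.20 ± 0.237 over the 9 and -7.35 ± 0.198 over the 3 (SD), a difference of 1.16 or 2.23-fold (two-sided exact permutation p = 0.00909, the smallest that 9 against 3 libraries allow). Pooling the 9 treats 3 preparations as alike. By pair, the ratio differed from crude by 0.95 in captured, 1.26 with proteinase K and 1.26 in mitoplasts, without overlap (exact permutation p = 0.1 each, the smallest that 3 against 3 allow, adjusted p = 0.15 over 6 pairs). Among captured preparations, the 95% exact binomial intervals overlapped for every library, from 0.812 at the lowest lower bound to 2.17 at the highest upper bound. The differences there were 0.31, 0.31 and 0.00 on the log2 scale (exact permutation p = 0.3, 0.1 and 1.0, adjusted p = 0.36, 0.15 and 1.0).

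The difference in that ratio changed when a level of counts found in genes that muscle does not normally transcribe was subtracted. The median of 1115 olfactory receptor genes, odorant sensors of the nose, had 30 to 34 counts in crude libraries and 37 to 49 in the others. Mt-atp6 stood 75.4 to 301 times above that median in captured libraries, but Mt-atp8 only 1.21 to 3.8 times, against 16.4 to 19.2 times in crude libraries. With the median subtracted from both genes, captured libraries had 0.247 to 0.934 Mt-atp8 counts per 100 Mt-atp6 counts and crude libraries 0.516 to 0.671, so the groups overlapped. The difference in log2 ratio became -0.47 (two-sided exact permutation p = 0.318). The same subtraction, chosen for fold changes after the data were seen, put Mt-atp8 at -3.40, -5.51 and -5.14 against crude in captured, proteinase K-treated and mitoplast libraries, with no test, and left Mt-atp6 at -3.70, -4.91 and -4.82. How many counts of Mt-atp8 belong to that level was not tested, since a gene of another length need not collect as many.

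**Figure D2:**
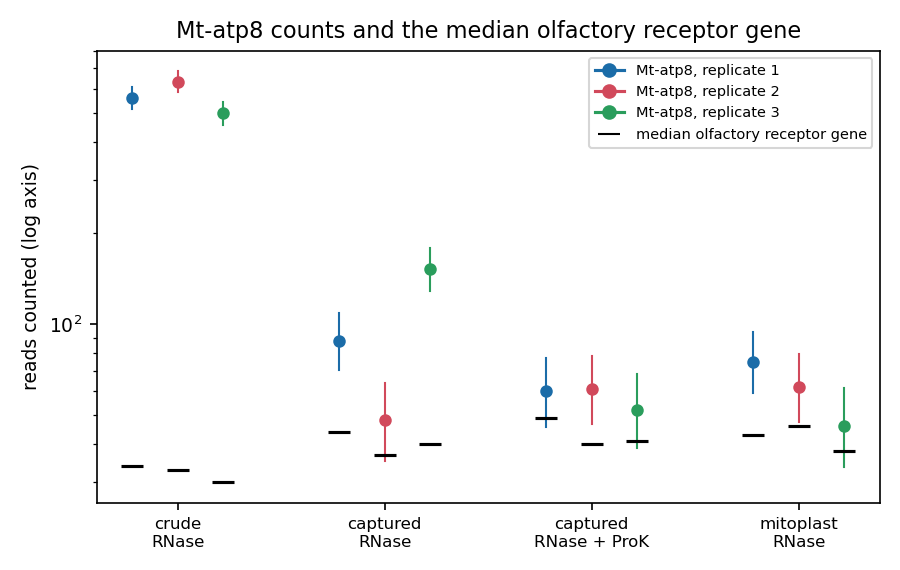
Raw Mt-atp8 counts per library on a log axis, with 95% exact Poisson intervals, beside the median olfactory receptor gene of the same library (black dash). Crude libraries have 498 to 633 counts, far above the dash, while captured libraries have 46 to 152, 1.21 to 3.8 times the dash.

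**Figure D3:**
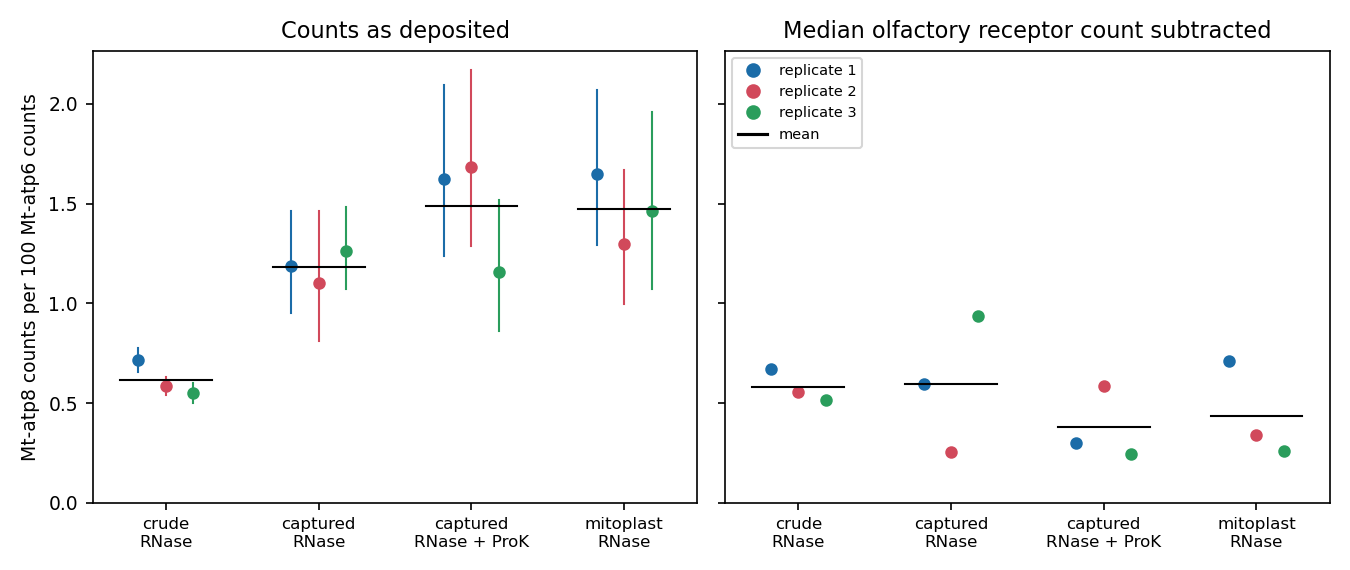
Mt-atp8 counts per 100 Mt-atp6 counts in each library, with counts as deposited and 95% exact binomial intervals (left) and after subtracting the median olfactory receptor count (right). Points are libraries and black lines are means of 3. On the left the 9 captured libraries lie above the crude ones, and on the right the groups overlap.

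As a share of the 13 mitochondrial mRNAs, Mt-atp6 varied little beside its fall in level. It took 5.18% to 5.31% of their counts in crude libraries and 5.12% to 6.16% in the other 9, a difference of 0.361 percentage points between the means that did not pass (two-sided exact permutation p = 0.0636). It did without captured replicate 2, at 0.424 points (exact permutation p = 0.0121). Mitoplast libraries, at 6.07%, 6.16% and 5.55%, and proteinase K libraries, at 5.44%, 5.72% and 5.63%, lay above every crude library. Captured libraries without either treatment overlapped the crude ones. Mt-atp8 took 0.0292% to 0.037% in crude and 0.0564% to 0.1% in the other libraries (two-sided exact permutation p = 0.00909), a difference of 0.0455 points that became -0.00402 with the olfactory median subtracted (exact permutation p = 0.645).

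The other mitochondrial mRNAs were set against Mt-atp6, in comparisons chosen after the data were seen. Of 12 log2 ratios to Mt-atp6, 3 were higher and 2 lower in the 9 captured than in the 3 crude libraries, and 7 did not pass (two-sided exact permutation, adjusted over the 12). Besides Mt-atp8, the ratio was higher for Mt-nd4l, a complex I subunit, by 0.54 and for Mt-nd6, a complex I gene encoded on the light strand, by 0.45 (exact permutation adjusted p = 0.0273 for each). It was lower for Mt-co1, the catalytic subunit of cytochrome c oxidase, at -0.45 (exact permutation adjusted p = 0.0273) and for its partner Mt-co3, the gene downstream of Mt-atp6, at -0.35 (exact permutation adjusted p = 0.0436). The smallest difference was that of Mt-nd5, at 0.00 (exact permutation adjusted p = 0.973). With the olfactory median subtracted, the ratios of Mt-nd4l and Mt-nd6 stayed higher, at 0.49 and 0.44, and that of Mt-co1 lower, at -0.44 (exact permutation adjusted p = 0.0364 each), while Mt-co3 at -0.34 and Mt-atp8 at -0.47 did not pass (exact permutation adjusted p = 0.0818 and 0.382).

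**Figure D4:**
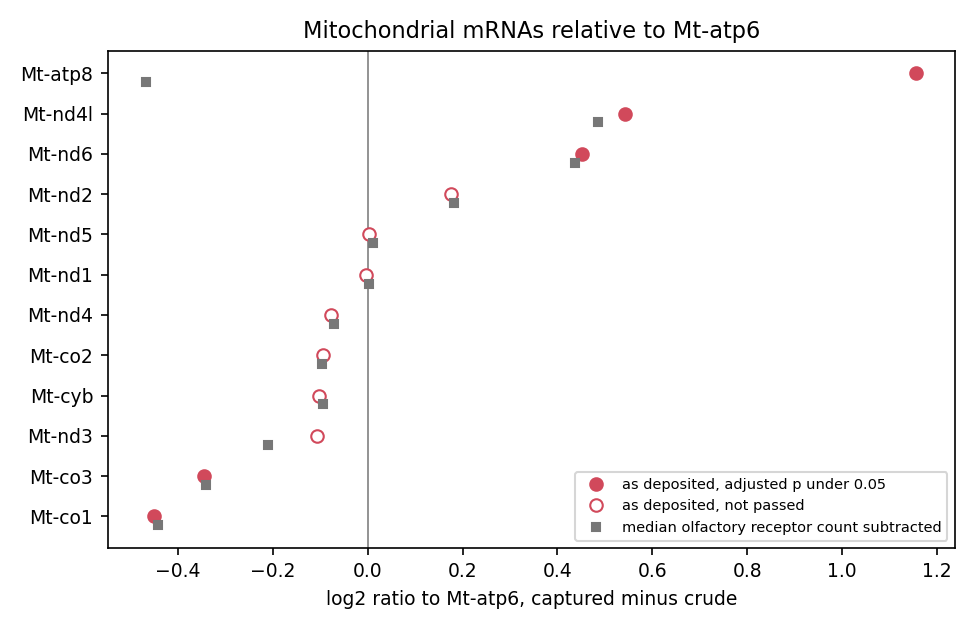
Difference in log2 ratio to Mt-atp6 between the means of 9 captured and 3 crude libraries for the other 12 mitochondrial mRNAs. Filled circles passed at an adjusted p under 0.05 and open circles did not; grey squares are after subtracting the median olfactory receptor count. Mt-atp8, with 46 to 152 counts per captured library, moves from 1.16 to -0.47. Mt-nd4l, with 579 to 2047, moves from 0.54 to 0.49.

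Mt-nd4l and Mt-nd4 are the other pair of overlapping reading frames on a single mitochondrial mRNA. Their ratio also differed: 6.76, 6.41 and 5.96 Mt-nd4l counts per 100 Mt-nd4 counts in crude libraries and 8.99 to 10.9 in the other 9, without overlap. The log2 difference was 0.62, and 0.56 with the olfactory median subtracted (two-sided exact permutation p = 0.00909 for both). Mt-nd4l had 579 to 2047 counts per captured library, against 46 to 152 for Mt-atp8. At that depth the subtraction could move the Mt-nd4l ratio only slightly, so its unchanged direction does not set the 2 pairs apart.

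The genes whose pattern over the 12 libraries was most like that of either member were mitochondrial too. Among 18762 other genes with a mean of at least 50 counts, the 5 nearest to Mt-atp6 by Pearson correlation of log2 CPM were Mt-nd5, Mt-nd4, Mt-co1, Mt-co2 and Mt-nd4l, at 0.9993 to 0.9997, and the 12 nearest were the other 12 mitochondrial mRNAs. Mt-atp8 was the last of these, at 0.9935. The 5 nearest to Mt-atp8 were Mt-nd4l, Mt-atp6, Mt-nd5, Mt-co1 and Mt-co2, at 0.9924 to 0.9936. These values mainly describe the gap between crude and captured libraries, which fall into separate clusters and share one scaling. Within the 9 captured libraries Mt-atp6 and Mt-nd5 correlated at 0.997, and Mt-atp6 and Mt-atp8 at 0.936.

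The nuclear partners in the same enzyme were also lower in captured preparations, in counts as deposited by less than Mt-atp6. The olfactory median was not subtracted for these genes. Whether such a level of counts made their fold changes smaller was not tested. Of 17 listed subunit genes, 12 were found on a single row and tested. Against crude mitochondria, 10 of 12 fell in captured mitochondria, 11 of 12 with proteinase K and 11 of 12 in mitoplasts, where 5.09%, 5.04% and 4.54% of all genes tested were called lower. Their median log2 fold changes were -1.24, -1.17 and -1.04, against 0.01, 0.00 and 0.00 over all genes tested. These counts became 4, 4 and 3 under library size scaling and 0, 0 and 0 when scaled on the other 11 mitochondrial mRNAs. Between captured preparations 0 of 12 were called by edgeR in any of 3 comparisons. Of all genes tested, 0.14% were called for proteinase K and 0.155% for mitoplasts against captured, and 0% between those 2. A count of 0 of 12 is near those shares.

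The lowest 2 of these 12 encode the catalytic head. Atp5f1b, the catalytic beta subunit, was at -2.71 ± 0.1 and Atp5f1a, the alpha subunit, at -1.90 ± 0.0955 in captured against crude mitochondria (edgeR adjusted p = 2.03e-29 and 1.98e-23). Atp5f1d, the delta subunit of the central stalk, was at -0.63 ± 0.117, and at 0.39 by library size. In the membrane sector, Atp5mc3, a copy of the ring subunit c, was at -1.01 and Atp5me and Atp5mf at -1.26 and -1.22. Among peripheral stalk subunits Atp5pf was at -1.56, Atp5pb at -1.40, Atp5pd at -1.28 and Atp5po at -0.93. Atp5mc2, another copy of subunit c, at -0.46, and Atp5mg, subunit g, at -0.36, did not pass (edgeR adjusted p = 0.0909 and 0.0906). Scaled on the other 11 mitochondrial mRNAs, all 10 that fell were higher, and by library size Atp5f1d, Atp5mc3 and Atp5po were at or above 0.

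**Figure D5:**
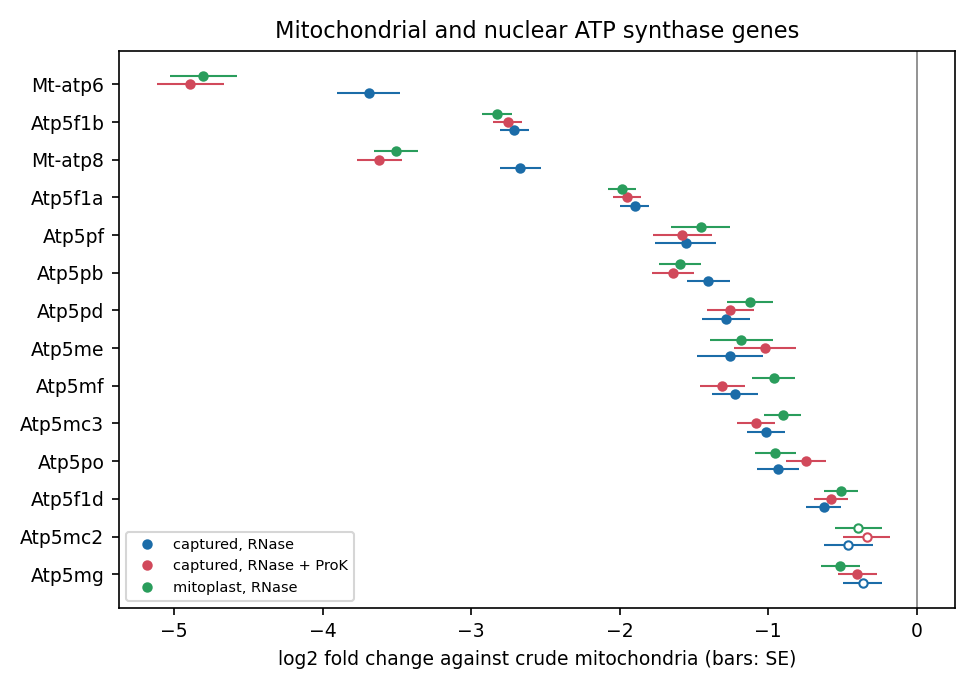
Log2 fold change (edgeR, bars are SE) of Mt-atp6, Mt-atp8 and 12 nuclear ATP synthase subunit genes against crude mitochondria, in captured (blue), proteinase K-treated (red) and mitoplast (green) libraries. Filled points passed at an adjusted p under 0.05. Mt-atp6 lies between -4.89 and -3.69, below the nuclear genes, of which the lowest is Atp5f1b. The olfactory median was not subtracted from any gene here.

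The 2 further lists hold genes that serve the mitochondrial subunits without being part of the enzyme. In captured against crude mitochondria 5.09% of all genes tested were called lower, and the counts of both lists were near that share. Of 10 genes of ATP synthase assembly and inhibition, 1 fell in captured against crude mitochondria, with a median of -0.04. It was Atp5if1, the inhibitor of ATP hydrolysis by the enzyme, at -1.41 ± 0.223 (edgeR adjusted p = 3.5e-06), and at -0.39 under library size scaling, where it did not pass (edgeR adjusted p = 0.117). Oxa1l, the insertase for mitochondrially made membrane proteins, was at -0.34 and did not pass (edgeR adjusted p = 0.0768). Of 26 genes of mitochondrial RNA synthesis, processing and stability, 2 fell, with a median of -0.04. They were Lrpprc, which stabilises mitochondrial mRNAs, at -0.31 ± 0.0863 (edgeR adjusted p = 0.0162, up to 0.0818 with 1 library left out), and Rexo2, a mitochondrial exonuclease of short RNAs, at -0.45 ± 0.129 (edgeR adjusted p = 0.0211, up to 0.123). Lrpprc and Rexo2 were at 0.72 and 0.57 by library size scaling. Tfam, the factor that packages mitochondrial DNA and starts its transcription, was at -0.40 and Mtpap, the mitochondrial poly(A) polymerase, at 0.28 (edgeR adjusted p = 0.11 and 0.234). With proteinase K and in mitoplasts the counts lower than crude were 1 and 1 of 10 and 2 and 1 of 26, and 0 rose.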

How the data were processed

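RNA was sequenced from 12 ribosomal RNA-depleted libraries of mitochondrial preparations. The tools named, per the submitters' processing notes, are STAR 2.7.11a, HTSeq, cutadapt 4.6 and FastQC 0.74, with the build mRatBN7.2. Strand setting and overlap mode were not given in the sources used here. Whole-number counts per Ensembl gene, not normalised, were deposited by the authors. Columns were matched by library description, 0 columns of other samples were present, and groups came from the titles, since the source labels of crude libraries name immunoprecipitation.

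Differences were tested with edgeR 4.0.16 (R 4.3.3) using TMM scaling and quasi-likelihood F tests, in a single 4-group model over the 12 libraries. Filtering by filterByExpr with a minimum count of 10 left 26483 genes (86.7%), and p-values were adjusted by Benjamini-Hochberg with a threshold of 0.05. On simulated counts of 26254 genes for captured against crude mitochondria, 97% of 100 genes changed 2-fold and 100% of 100 changed 4-fold were recovered. Of the calls made there, 3.9% were false. The simulation gave every gene the same dispersion and did not include the fall of the mitochondrial mRNAs as a group. Whether the recovery and the share of false calls hold for the real counts was not tested. This includes genes as variable as Mt-atp6, at 1083 to 2756 CPM in captured mitochondria. Ratios and shares were compared with exact permutation tests in SciPy 1.17.1. Replicate pairs differed beyond sampling noise (chi-square over its degrees of freedom 1.24 to 12.1), so none was treated as a duplicate. Alternatives were other scalings, DESeq2 1.42.0, no filter, 2-group fits, a replicate block, leaving out each library, and subtraction of the median olfactory receptor count. The named genes were the members, the mitochondrial mRNAs, list genes called in captured against crude mitochondria or with the smallest p, and the 5 nearest in pattern. Of 17 nuclear subunit genes, 3 were not matched by name and 2 stood on several rows, and these were not analysed here. Members and lists were chosen with earlier results of these data known.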

Additional observations from a re-analysis of the deposited data

How the results depend on the processing

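In the 3 comparisons with crude mitochondria, both members kept their direction and call under library size and olfactory receptor scaling, TMM without mitochondrial genes, no filter, DESeq2, 2-group fits, the replicate block and without any 1 library. Scaling on the other 11 mitochondrial mRNAs moved the median of all genes to 3.81, 4.95 and 4.95 in captured, proteinase K-treated and mitoplast libraries against crude, and library size scaling moved it to 1.03, 1.08 and 1.07, and olfactory receptor scaling to -0.21, -0.12 and -0.11. Under the former, which sets that group near 0 by construction, Mt-atp6 was at 0.021, 0.10 and 0.18 and Mt-atp8 at 0.97, 1.37 and 1.44 against crude. The members were at 0.076 and 0.39 (Mt-atp6, Mt-atp8) for proteinase K against captured and at 0.16 and 0.47 for mitoplasts against captured. With the olfactory median subtracted, Mt-atp8 was at -3.40, -5.51 and -5.14 against crude, -2.11 for proteinase K and -1.74 for mitoplasts against captured. The Mt-atp8 to Mt-atp6 ratio then differed by -0.47 for captured against crude, by pair by -0.15, -0.71 and -0.54 from crude, -0.57 and -0.40 from captured and 0.17 between mitoplasts and proteinase K, and the Mt-atp8 share by -0.00402 points. The ratio of Mt-nd1 to Mt-atp6 was then at 0.0025.

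For proteinase K against captured mitochondria, Mt-atp8 did not pass under library size (-0.88) or olfactory scaling (-0.85), and DESeq2 gave it no adjusted p there or for mitoplasts against captured. Mt-atp6 in mitoplasts against captured did not pass with DESeq2 (-1.11), while Mt-atp8 passed with no filter (-0.84, edgeR adjusted p = 0.0307) and in the 2-group fit (-0.84, edgeR adjusted p = 0.00193). Without 1 library, Mt-atp6 ran from -1.47 to -0.80 and Mt-atp8 from -1.24 to -0.48 for proteinase K against captured, from -1.38 to -0.71 and -1.13 to -0.37 for mitoplasts against captured, and from -0.038 to 0.23 and -0.068 to 0.24 for mitoplasts against proteinase K. There the ratio of the members ran from -0.18 to 0.10, and the Mt-atp6 share difference ran from 0.294 to 0.424 points for captured against crude.

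Genes called in captured, proteinase K-treated and mitoplast libraries against crude were 1684, 1719 and 1467. They became 25273, 25408 and 25402 by library size and 26449, 26470 and 26465 on the 11 mitochondrial mRNAs. Captured against crude had 4535 on olfactory receptor genes, and DESeq2 called 1135 for proteinase K against crude. Of 37 for proteinase K and 41 for mitoplasts against captured, the 11 mitochondrial mRNAs gave 24947 and 24839 and the 2-group fits 143 and 115, with 23 by library size for proteinase K and 24 to 35 and 25 to 42 without 1 library. Mitoplasts against proteinase K had 0, with 1 on the 11 mitochondrial mRNAs, 11 in the 2-group fit and 0 to 1 without 1 library. Nuclear subunit genes lower than crude, 10, 11 and 11, became 4, 4 and 3 by library size and 0, 0 and 0 on the 11 mitochondrial mRNAs.

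Scaled on those mRNAs, captured against crude was at 1.90 for Atp5f1a, 1.11 for Atp5f1b, 3.15 for Atp5f1d, 2.86 for Atp5mc3, 2.52 for Atp5me, 2.61 for Atp5mf, 2.44 for Atp5pb, 2.50 for Atp5pd, 2.24 for Atp5pf, 2.78 for Atp5po, 2.40 for Atp5if1, 3.52 for Lrpprc and 3.32 for Rexo2. By library size it was at 0.39 for Atp5f1d, 0.019 for Atp5mc3, 0.081 for Atp5po, 0.72 for Lrpprc and 0.57 for Rexo2. The cause of these changes was not tested beyond the scalings' own construction.

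The replicate block changed no call of the members. Mt-atp6 against crude was then at -3.71, -4.90 and -4.77, and the permutations of the ratio within pairs gave exact permutation p = 0.25 for each pair with crude, the smallest that 3 pairs allow. Deviations of same-numbered libraries of different preparations correlated at -0.172 to 0.099, with 0 of 18 above 0.1. Their median was 0.0013, against 0.00555 for different numbers, so no pairing was seen. Whether same-numbered libraries shared an aliquot or a batch was not tested. Depth limits Mt-atp8, at 46 to 152 counts per captured library, more than Mt-atp6, at 3141 to 12032.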
